A study of Homo sapiens with 6 samples.

Results

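The enzymes that attach isoprenoid lipids to proteins, and those that finish the lipid-bearing C-terminus, were followed at the transcript level in A375, an established human melanoma cell line. The 10 genes were chosen by symbol for their known roles: the prenyltransferase subunits FNTA, FNTB, PGGT1B, RABGGTA and RABGGTB, the Rab escort proteins CHM and CHML, the CAAX proteases RCE1 and ZMPSTE24, and the methyltransferase ICMT. All 10 were among the 29790 genes of the deposited table, each on 1 line, and all 10 passed the filter on low values that left 14344 genes for testing. The study held 3 libraries of cells exposed for 24 h to 3 µM fluvastatin and 3 libraries of untreated control cells grown beside them, numbered 0, 1 and 2 in each group. All cells were of this single line in serum-containing medium, and no label says whether the triplicates came from separate cultures. If they did not, the p-values rest on technical spread alone.

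Fluvastatin blocks HMG-CoA reductase and so the mevalonate pathway, whose products include farnesyl and geranylgeranyl pyrophosphate. Protein farnesyltransferase and geranylgeranyl transferase I place these lipids on the cysteine of a C-terminal CAAX sequence, where C is cysteine, A usually an aliphatic residue and X the residue that helps to choose the lipid; Ras proteins and lamins are well-known substrates. Rab GTPases are handled separately: an escort protein presents them to Rab geranylgeranyl transferase, which adds the lipid and has no CAAX rule. After prenylation of a CAAX protein in the cytosol, proteases of the endoplasmic reticulum cut off the last residues and a methyltransferase caps the exposed cysteine.

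Expression is given in FPKM, a fragment density that is corrected for transcript length and library size, so that levels of different genes can be compared per length. The steps between low values gave relative depths of 1.27, 1.51 and 1.41 in fluvastatin replicates 0, 1 and 2, and of 1, 1.185 and 0.966 in control replicates 0, 1 and 2. By this measure each fluvastatin library was deeper than each control, and depth and treatment cannot be told apart. A coarser estimate of absolute depth, from low values of single-transcript genes, gave the same depth for fluvastatin replicate 0 and control replicate 1. With each gene at its longest annotated transcript, that estimate gave about 211 fragments for the thinnest value of any of the 10 genes. Counting error alone is then about 6.89%. Shorter transcripts would give fewer fragments and a larger error. Among lineage markers AXL was at 305 to 325 FPKM in fluvastatin libraries and 321 to 343 FPKM in controls, and MITF at 6.10 to 7.04 and 6.66 to 7.77 FPKM. SOX10, a transcription factor of the neural crest, was at 67.1 to 75.4 FPKM in fluvastatin libraries and 20.1 to 26.1 FPKM in controls with no overlap, and its part in the results was not tested. The lineage genes PMEL and S100B stayed at or below 0.905 and 0.600 FPKM in all 6 libraries. Markers of other cell types were summed over 2 genes each: epithelial EPCAM and KRT5, endothelial PECAM1 and CDH5, and fibroblast PDGFRA and DCN. These sums reached at most 0.398, 0.0724 and 0.353 FPKM in fluvastatin libraries and 0.397, 0.0422 and 0.982 FPKM in control libraries. They do not speak for other genes of these types. The keratin gene KRT18 averaged 360 FPKM with fluvastatin and 455 FPKM in controls, and SPARC 828 and 590 FPKM.

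Of the 10 genes, 1 rose, RABGGTA, and 0 fell at a Benjamini-Hochberg adjusted p below 0.05 in limma's test on log2(FPKM + 1), while 9 did not pass. The same test called 27.7% of all genes tested, 14.1% as higher and 13.6% as lower, so a share of 1 in 10 is no more than the background. At an unadjusted p below 0.05 limma gave 2 of the 10 genes, RABGGTA and CHM, against 40.3% of all genes. The median log2 fold change of the 10 was -0.01, the same as over all genes tested (-0.01), and the median of the absolute log2 fold changes was 0.15 against 0.26 over all genes. The 3 fluvastatin libraries lay wholly above the controls for 2 genes (RABGGTA, CHM), wholly below them for 1 (ICMT) and overlapped them for 7, where 44.8% of all genes did not overlap. The summed level of the 10 genes was 311, 329 and 338 FPKM in fluvastatin replicates 0, 1 and 2 and 347, 319 and 352 FPKM in control replicates 0, 1 and 2, and these ranges overlapped.

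**Figure D1:**
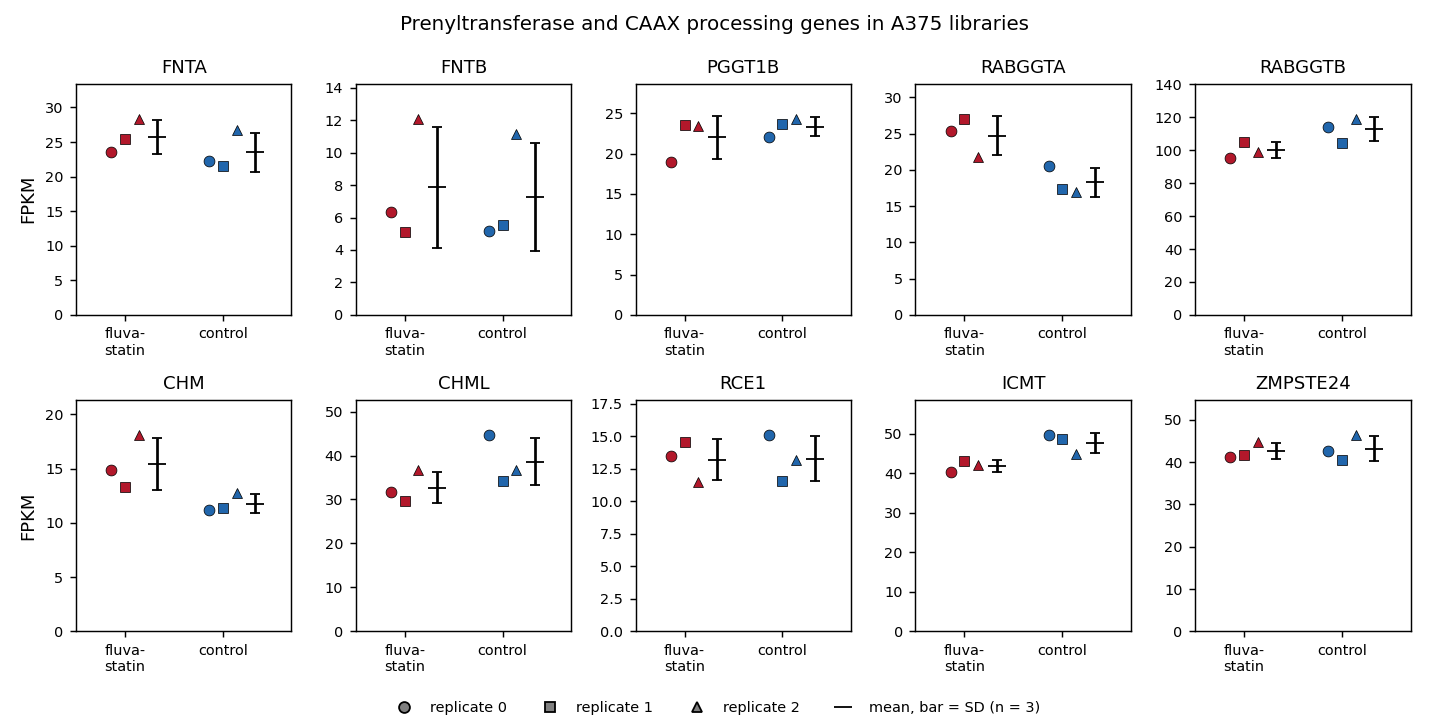
FPKM of each of the 10 genes in the 3 fluvastatin libraries (red, left) and the 3 control libraries (blue, right), with marker shapes for the replicate number and black bars for mean ± SD. RABGGTA and CHM lie wholly higher and ICMT wholly lower in fluvastatin libraries, and FNTB is highest in replicate 2 of both groups.

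The genes differed widely in level. RABGGTB was the highest, with a mean over all 6 libraries of 106 FPKM, and its lowest library (95.5 FPKM) stood above the highest library of any of the other 9 genes (49.6 FPKM, ICMT). ICMT, ZMPSTE24 and CHML followed with means of 44.8, 42.9 and 35.6 FPKM, and their libraries overlapped as neighbours in this order. FNTA, PGGT1B and RABGGTA came next at 24.6, 22.7 and 21.5 FPKM, again overlapping. The order turned between groups for RABGGTA and PGGT1B (24.7 and 22.0 FPKM with fluvastatin, 18.3 and 23.4 FPKM in controls), for CHM and RCE1 (15.4 and 13.2 FPKM with fluvastatin, 11.8 and 13.3 FPKM in controls) and for ICMT and ZMPSTE24 (41.9 and 42.6 FPKM with fluvastatin, 47.8 and 43.1 FPKM in controls). Over both groups CHM and RCE1 were close together at 13.6 and 13.2 FPKM, and FNTB as listed by itself was the lowest at 7.57 FPKM. That rank leaves out CHURC1-FNTB, a readthrough gene that runs through FNTB. The sum of FNTB and CHURC1-FNTB was 20.7 FPKM with fluvastatin and 23.4 FPKM in controls. The highest CHM library still passed the lowest RABGGTA library, and the highest FNTB library the lowest RCE1 library, whereas no FNTA library reached a CHML library. In bulk RNA, fewer cells that express a gene and less RNA per cell cannot be told apart for any of these levels.

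Rab geranylgeranyl transferase, a dimer of an alpha and a beta subunit, held the gene that rose. Its alpha subunit gene RABGGTA was at 25.3, 27.0 and 21.8 FPKM in fluvastatin replicates 0, 1 and 2, against 20.6, 17.3 and 17.0 FPKM in control replicates 0, 1 and 2. The lowest fluvastatin library exceeded the highest control by a narrow margin. Mean levels were 24.7 ± 2.65 FPKM with fluvastatin and 18.3 ± 1.97 FPKM in controls (SD, n = 3 each), a 1.35-fold difference, with a log2 fold change of 0.42 ± 0.12 (SE; 95% confidence interval 0.13 to 0.70; limma adjusted p = 0.0436). Changes at least as large in either direction were seen in 29.3% of all genes tested. The call was lost in 8 of 15 alternatives, among them without control replicate 1 (adjusted p = 0.119), control replicate 2 (0.104) or fluvastatin replicate 0 (0.122) or 1 (0.121), and with library depth as a covariate (0.426), over a range of 0.0243 to 0.426. Its log2 fold change stayed between 0.35 and 0.50 in all 15. Other filters, limma's trend and robust options and the replicate block could not alter this value, only its adjusted p.

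RABGGTB encodes the catalytic beta subunit, and its introns carry the small nucleolar RNAs SNORD45A, SNORD45B and SNORD45C. It was at 95.5, 105 and 99.2 FPKM in fluvastatin replicates 0, 1 and 2, against 114, 105 and 119 FPKM in control replicates 0, 1 and 2. Fluvastatin replicate 1 lay just above control replicate 1, and the groups overlapped at that point only. The log2 fold change was -0.17 ± 0.09 (SE; 95% confidence interval -0.39 to 0.05; limma adjusted p = 0.214). ACADM, the medium-chain acyl-CoA dehydrogenase gene, overlaps the start of RABGGTB on the same strand and was at 22.2 to 25.2 FPKM in fluvastatin libraries and 27.7 to 33.9 FPKM in controls; how reads of their shared stretch were divided was not tested.

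The beta to alpha ratio, RABGGTB over RABGGTA in FPKM, was 3.77, 3.89 and 4.54 in fluvastatin replicates 0, 1 and 2, against 5.57, 6.04 and 7.01 in control replicates 0, 1 and 2. The groups did not overlap, and in each library the listed FPKM of RABGGTB was several times that of RABGGTA. SNORD45A, SNORD45B and SNORD45C are not listed separately, and whether their fragments entered the RABGGTB values was not tested. On the log2 scale of FPKM + 1 the ratio was lower by a difference of -0.59, with means of 1.98 ± 0.14 with fluvastatin and 2.56 ± 0.16 in controls (SD, n = 3 each; two-sided exact permutation p = 0.1, the smallest that 3 against 3 allows; 0.35 adjusted over 7 ratios).

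The escort proteins CHM (REP1, the gene mutated in choroideremia) and CHML (REP2, its autosomal relative) bind new Rab proteins and bring them to that enzyme. CHM was at 14.9, 13.3 and 18.0 FPKM in fluvastatin replicates 0, 1 and 2, against 11.1, 11.4 and 12.8 FPKM in control replicates 0, 1 and 2. All 3 fluvastatin libraries were above all 3 controls, with fluvastatin replicate 2 the highest. Means were 15.4 ± 2.42 FPKM with fluvastatin and 11.8 ± 0.872 FPKM in controls (SD, n = 3 each), 1.31-fold, with a log2 fold change of 0.35 ± 0.13 (SE; 95% confidence interval 0.05 to 0.66) that did not pass after adjustment over all genes (limma adjusted p = 0.0835, over a range of 0.0528 to 0.368).

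CHML showed 31.8, 29.8 and 36.6 FPKM in fluvastatin replicates 0, 1 and 2, against 44.6, 34.3 and 36.8 FPKM in control replicates 0, 1 and 2. Control replicate 0 was the highest, and fluvastatin replicate 2 lay between the other controls. For CHML the log2 fold change was -0.23 ± 0.13 (SE; 95% confidence interval -0.54 to 0.09; limma adjusted p = 0.247), and it came to -0.12 without control replicate 0 and -0.0023 with library depth as a covariate. CHML lies within OPN3, an opsin gene on the same strand of chromosome 1, which was at 2.63 to 3.26 FPKM in fluvastatin libraries and 3.91 to 4.17 FPKM in controls (limma adjusted p = 0.0254); whether OPN3 reads entered the CHML values was not tested.

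CHML over CHM came to 2.14, 2.24 and 2.03 in fluvastatin replicates 0, 1 and 2, against 3.997, 3.02 and 2.88 in control replicates 0, 1 and 2. The fluvastatin values lay close together and below every control. CHM therefore made up 31.9 ± 1.07% of the FPKM of the pair with fluvastatin and 23.5 ± 3.09% in controls (SD, n = 3 each), while their sum overlapped between groups, at 48.1 ± 5.94 and 50.3 ± 5.07 FPKM (SD, n = 3 each). On the log2 scale of FPKM + 1 the difference of the ratio was -0.58 (two-sided exact permutation p = 0.1 with n = 3 each, the smallest possible; 0.35 adjusted over 7 ratios), and it stayed between -0.67 and -0.44 when each library was left out in turn. Of the 7 ratios formed, RABGGTB over RABGGTA and CHML over CHM were the 2 that did not overlap between groups. Over every pair of genes tested, 43.9% of such ratios did not overlap either, so 2 of 7 is below the background.

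**Figure D2:**
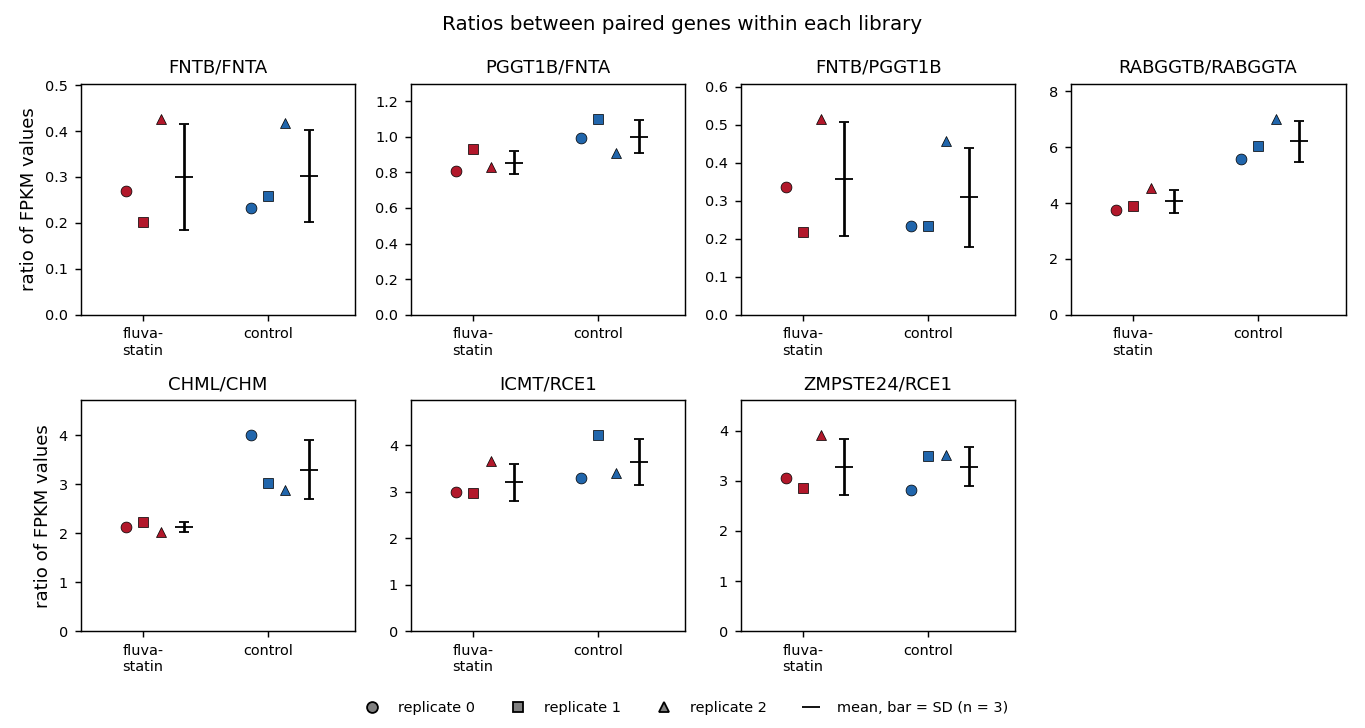
Ratio of FPKM values of 2 genes within each library, for fluvastatin (red, left) and control (blue, right), with marker shapes for the replicate number and black bars for mean ± SD. RABGGTB/RABGGTA is 3.77 to 4.54 with fluvastatin and 5.57 to 7.01 in controls, CHML/CHM is 2.03 to 2.24 and 2.88 to 3.997, and the groups overlap in the other 5 panels.

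The promoters of these 4 genes of the Rab branch are shown because theirs were the 2 ratios that did not overlap between groups. They are RefSeq windows on GRCh38.p14, the first listed for each gene, from 250 bases before to 50 bases after the annotated start, 5′ to 3′ on the gene's strand: RABGGTA at chr14:24271578-24271877 (minus), RABGGTB at chr1:75786006-75786305 (plus), CHM at chrX:86047509-86047808 (minus) and CHML at chr1:241640320-241640619 (minus). Capitals mark matches to the motifs listed in the next paragraph.
RABGGTA: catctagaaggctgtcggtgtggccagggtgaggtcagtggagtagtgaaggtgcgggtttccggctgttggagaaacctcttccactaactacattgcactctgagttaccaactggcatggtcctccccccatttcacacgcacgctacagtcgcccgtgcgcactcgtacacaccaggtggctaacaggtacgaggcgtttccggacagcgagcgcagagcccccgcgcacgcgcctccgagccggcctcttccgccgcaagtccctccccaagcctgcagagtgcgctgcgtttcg
RABGGTB: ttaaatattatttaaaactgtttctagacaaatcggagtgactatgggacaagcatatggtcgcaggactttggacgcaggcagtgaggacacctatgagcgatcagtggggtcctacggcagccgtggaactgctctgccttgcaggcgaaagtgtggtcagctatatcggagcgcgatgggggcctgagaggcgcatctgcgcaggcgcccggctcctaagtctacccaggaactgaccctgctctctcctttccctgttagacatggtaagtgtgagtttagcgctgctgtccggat
CHM: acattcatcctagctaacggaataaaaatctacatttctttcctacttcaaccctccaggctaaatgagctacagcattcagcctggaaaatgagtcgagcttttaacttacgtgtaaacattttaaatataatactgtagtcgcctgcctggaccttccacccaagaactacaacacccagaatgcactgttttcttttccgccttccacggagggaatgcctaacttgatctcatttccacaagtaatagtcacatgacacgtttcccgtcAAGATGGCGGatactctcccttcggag
CHML: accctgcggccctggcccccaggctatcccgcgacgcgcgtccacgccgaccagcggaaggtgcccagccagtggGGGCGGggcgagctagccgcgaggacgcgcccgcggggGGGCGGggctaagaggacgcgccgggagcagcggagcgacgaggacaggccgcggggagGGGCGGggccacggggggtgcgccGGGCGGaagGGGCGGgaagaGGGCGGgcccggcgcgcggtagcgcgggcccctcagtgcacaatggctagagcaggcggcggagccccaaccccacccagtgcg

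Short motifs were searched on both strands, allowing overlaps: the E-box CACGTG, the cyclic AMP response element TGACGTCA, the ETS-type element CCGGAAGT, the YY1-type element, a palindromic element with CGCG at its centre, the CCAAT box CCAAT, the GC box GGGCGG and the sterol regulatory element TCACNCCAC. The RABGGTA and RABGGTB windows held none of them, CHM held the YY1-type element starting 24 bases after the start, and CHML held GGGCGG at 6 places that began at positions -175 to -34 from the start. Windows were given for 9 of the 10 genes, all but FNTA. Among those, GGGCGG was found in 5 (44.6% of 27305 promoters), CCAAT in 1 (35.7%), TGACGTCA in 1, RCE1 (1.98%), CCGGAAGT in 1, ZMPSTE24 (4.43%), the YY1-type element in 1, CHM (1.28%), and the CGCG element in 1, ICMT (0.469%). CACGTG (7.43%) and TCACNCCAC (1.15%) were in 0 of the 9. The CHML window was rich in G and C (79.3%) and that of CHM poor (43.3%), with RABGGTA at 62.0%, RABGGTB at 54.0% and a median of 58.3% over all promoters. A match describes letters in a window and not a site in use.

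Farnesyltransferase and geranylgeranyl transferase I share the alpha subunit FNTA and differ in the beta subunit, FNTB for farnesyl and PGGT1B for geranylgeranyl transfer. FNTA was at 23.5, 25.4 and 28.3 FPKM in fluvastatin replicates 0, 1 and 2, against 22.3, 21.5 and 26.7 FPKM in control replicates 0, 1 and 2. Replicate 2 was the highest in both groups, and the groups overlapped. Fluvastatin minus control came to 0.13 ± 0.12 on the log2 scale (SE; 95% confidence interval -0.16 to 0.41; limma adjusted p = 0.466). This value was 0.0598 without fluvastatin replicate 2, 0.0715 without control replicate 1, 0.22 without control replicate 2 and 0.24 with library depth as a covariate. AC110275.1, a gene on the same strand that overlaps most of FNTA, was listed at 0, 1.47 and 0 FPKM with fluvastatin and at 0.924, 4.03 and 0 FPKM in controls.

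PGGT1B stood at 19.0, 23.6 and 23.5 FPKM in fluvastatin replicates 0, 1 and 2, against 22.1, 23.7 and 24.3 FPKM in control replicates 0, 1 and 2. Fluvastatin replicate 0 was the lowest of the 6 libraries, and the other 5 lay within a few FPKM of each other. Its log2 fold change was -0.09 ± 0.11 (SE; 95% confidence interval -0.35 to 0.18; limma adjusted p = 0.599), and it turned to 0.01 without fluvastatin replicate 0. PGGT1B over FNTA was 0.807, 0.929 and 0.828 in fluvastatin replicates 0, 1 and 2, against 0.992, 1.10 and 0.911 in control replicates 0, 1 and 2. The groups overlapped at fluvastatin replicate 1 and control replicate 2 (two-sided exact permutation p = 0.2 with n = 3 each; 0.467 adjusted over 7 ratios).

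FNTB, the farnesyltransferase beta subunit, was at 6.36, 5.13 and 12.1 FPKM in fluvastatin replicates 0, 1 and 2, against 5.17, 5.55 and 11.1 FPKM in control replicates 0, 1 and 2. Both replicate 2 libraries were at least 1.75-fold above each of the other 4, while the groups covered nearly the same range. The within-group coefficient of variation was 47.2% with fluvastatin and 45.8% in controls, against 3.5998% to 15.7% for the other 9 genes. The log2 fold change was 0.09 ± 0.36 (SE; 95% confidence interval -0.77 to 0.95; limma adjusted p = 0.876), so that for this gene even large changes of either sign lie within the interval. The sign turned without control replicate 0 (-0.0868), control replicate 1 (-0.0435) or fluvastatin replicate 2 (-0.23), and the value was 0.70 with library depth as a covariate.

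The span of FNTB lies almost wholly within CHURC1-FNTB, a readthrough gene of chromosome 14 that starts at CHURC1 and runs through FNTB on the same strand. CHURC1-FNTB was at 10.6, 16.0 and 11.8 FPKM in fluvastatin replicates 0, 1 and 2, against 18.2, 14.4 and 15.9 FPKM in control replicates 0, 1 and 2, and here replicate 2 did not stand apart. Listed by itself, FNTB made up 37.4, 24.3 and 50.7% of the sum of the pair with fluvastatin and 22.1, 27.9 and 41.2% in controls. That sum was still highest in replicate 2 of each group, at 23.9 FPKM with fluvastatin and 27.0 FPKM in controls. The sum, an alternative added after the data were seen, was 20.7 ± 3.47 FPKM with fluvastatin and 23.4 ± 3.54 FPKM in controls (SD, n = 3 each), with a log2 fold change of -0.17 ± 0.16 (SE; limma adjusted p = 0.463). Both ratios with FNTB overlapped between groups (FNTB over FNTA 0.202 to 0.426 with fluvastatin and 0.232 to 0.417 in controls; FNTB over PGGT1B 0.218 to 0.515 and 0.234 to 0.458). MAX, which encodes the partner of MYC, overlaps FNTB on the other strand, and the strand setting of the counting is not given in the sources used here.

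**Figure D3:**
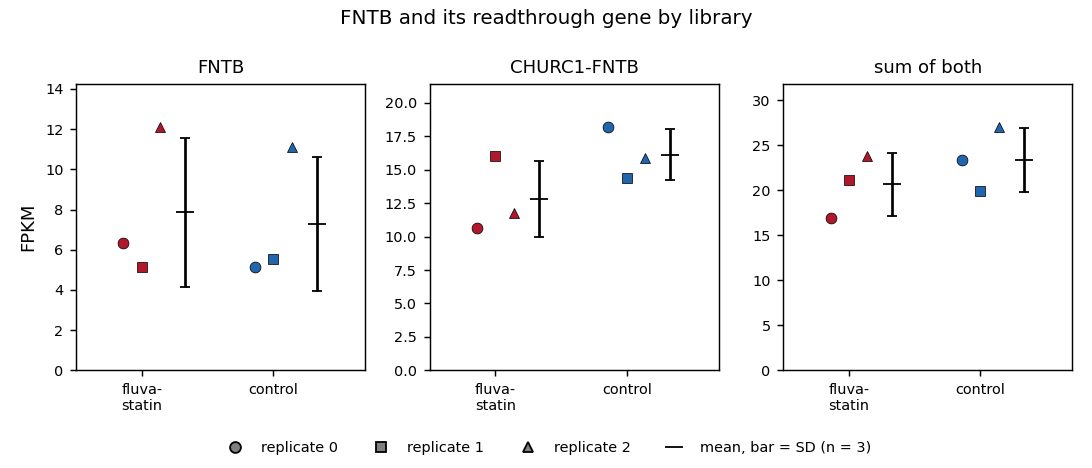
FPKM of FNTB, of the readthrough gene CHURC1-FNTB and of their sum in the fluvastatin (red, left) and control libraries (blue, right), with marker shapes for the replicate number and black bars for mean ± SD. FNTB reaches 12.1 and 11.1 FPKM in replicate 2 of fluvastatin and control and 5.13 to 6.36 FPKM in the other 4 libraries, a split that CHURC1-FNTB does not show. In the sum, replicate 2 is still the highest library of each group.

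RCE1 is the CAAX protease of the endoplasmic reticulum that removes the last residues of most prenylated CAAX proteins. It was at 13.5, 14.6 and 11.5 FPKM in fluvastatin replicates 0, 1 and 2, against 15.1, 11.6 and 13.2 FPKM in control replicates 0, 1 and 2. The groups covered nearly the same range. For RCE1 the log2 fold change was -0.01 ± 0.13 (SE; 95% confidence interval -0.32 to 0.30; limma adjusted p = 0.969), with a positive sign under TMM scaling (0.01), here an unweighted trimmed mean of M-values of the FPKM. C11orf80, a gene whose end overlaps the start of RCE1 on the same strand, was at 18.4 to 20.8 FPKM with fluvastatin and 10.51 to 14.8 FPKM in controls (limma adjusted p = 0.0171); its part in the RCE1 values was not tested.

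ZMPSTE24 is the zinc metalloprotease that matures farnesylated prelamin A. It was at 41.3, 41.7 and 44.8 FPKM in fluvastatin replicates 0, 1 and 2, against 42.6, 40.5 and 46.3 FPKM in control replicates 0, 1 and 2. Replicate 2 was again the highest in both groups. The log2 fold change was -0.02 ± 0.09 (SE; 95% confidence interval -0.23 to 0.20; limma adjusted p = 0.918), with a positive sign under TMM scaling (0.0089) and quantile normalization (0.0107). ZMPSTE24 over RCE1 averaged 3.27 ± 0.552 with fluvastatin and 3.28 ± 0.390 in controls (SD, n = 3 each).

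ICMT, the methyltransferase that caps the prenylcysteine with S-adenosylmethionine as methyl donor, was the gene whose fluvastatin libraries all lay below the controls. It was at 40.2, 43.2 and 42.1 FPKM in fluvastatin replicates 0, 1 and 2, against 49.6, 48.8 and 44.9 FPKM in control replicates 0, 1 and 2. Means were 41.9 ± 1.51 FPKM with fluvastatin and 47.8 ± 2.51 FPKM in controls (SD, n = 3 each), a ratio of 0.877. The log2 fold change of -0.19 ± 0.09 (SE; 95% confidence interval -0.39 to 0.02) did not pass (limma adjusted p = 0.155, over a range of 0.112 to 0.410). RNF207 and LINC00337 overlap the 2 ends of ICMT on the other strand, at 12.2 to 14.9 and 0.640 to 0.845 FPKM with fluvastatin and 12.9 to 14.5 and 0.616 to 0.752 FPKM in controls. ICMT over RCE1 was 2.97 to 3.67 with fluvastatin and 3.29 to 4.21 in controls and overlapped (two-sided exact permutation p = 0.3 with n = 3 each; 0.525 adjusted over 7 ratios).

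**Figure D4:**
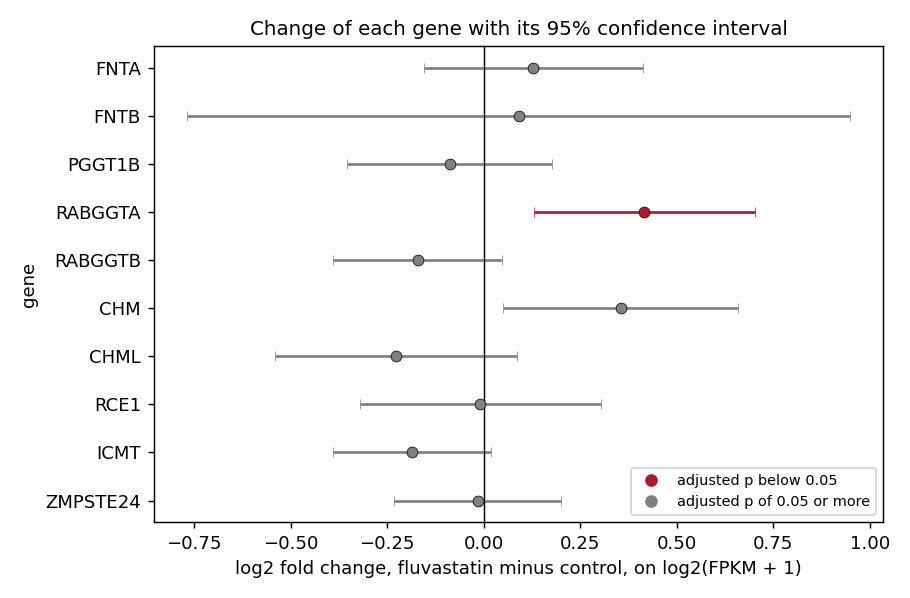
Log2 fold change of each gene, fluvastatin minus control on log2(FPKM + 1), with its 95% confidence interval from limma; red marks an adjusted p below 0.05. RABGGTA at 0.42 (0.13 to 0.70) is the gene past the threshold, CHM at 0.35 lies next to it, and FNTB has the widest interval (-0.77 to 0.95).

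For the 8 genes that did not pass other than FNTB, the 95% confidence intervals lay within -0.54 to 0.66 on the log2 scale. The genes lie on GRCh38 as follows, by GENCODE release 29: RABGGTA (ENSG00000100949.14) at chr14:24265538-24271739, RABGGTB (ENSG00000137955.15) at chr1:75786197-75795079, CHM (ENSG00000188419.13) at chrX:85861180-86047562, CHML (ENSG00000203668.2) at chr1:241628853-241640254, FNTB (ENSG00000257365.7) at chr14:64986720-65062652 and PGGT1B (ENSG00000164219.9) at chr5:115204012-115262872. RCE1 (ENSG00000173653.7) lies at chr11:66842835-66846546, ICMT (ENSG00000116237.15) at chr1:6221193-6235972, ZMPSTE24 (ENSG00000084073.8) at chr1:40258107-40294184 and FNTA (ENSG00000168522.12) at chr8:43034194-43085788.

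The genes around these enzymes, in 5 short lists, changed in both directions. Of 32 genes, all tested, 3 rose and 6 fell and 23 did not pass, a share close to that over all genes (27.7%), and the median log2 fold change was -0.04. Among 10 enzymes that make the isoprenoid donors or compete for them, 1 rose, 3 fell and 6 did not pass, with a median of -0.17. FDPS, which makes farnesyl pyrophosphate, fell to 88.8 ± 4.49 FPKM with fluvastatin, against 109 ± 3.58 FPKM in controls (SD, n = 3 each; limma adjusted p = 0.0430). FDFT1, the squalene synthase that draws farnesyl pyrophosphate towards sterols, fell to 68.9 ± 7.56 FPKM, against 95.2 ± 5.37 FPKM in controls (SD, n = 3 each; limma adjusted p = 0.0230). COX10, which farnesylates haem in mitochondria, fell to 11.1 ± 0.300 FPKM, against 14.9 ± 0.383 FPKM in controls (SD, n = 3 each; limma adjusted p = 0.0134). DHDDS, a subunit of the enzyme that builds dolichol chains, rose to 28.1 ± 0.932 FPKM, against 20.7 ± 1.92 FPKM in controls (SD, n = 3 each; limma adjusted p = 0.0201). GGPS1, which makes geranylgeranyl pyrophosphate, was at 38.3 ± 3.82 FPKM with fluvastatin and 34.9 ± 1.81 FPKM in controls (SD, n = 3 each; limma adjusted p = 0.403).

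Of 7 genes for cytosolic carriers of prenylated proteins, counting the release factors ARL2 and ARL3, 0 rose, 1 fell and 6 did not pass. The median log2 fold change of this list was 0.09. ARHGDIB, known from blood cells, fell to 20.05 ± 1.74 FPKM with fluvastatin, against 34.2 ± 0.787 FPKM in controls (SD, n = 3 each; limma adjusted p = 0.00268), with a log2 fold change of -0.75 ± 0.09 (SE). ARHGDIA was at 771 ± 12.0 and 656 ± 37.5 FPKM in fluvastatin and control libraries (SD, n = 3 each; limma adjusted p = 0.0835), and the prenyl-binding PDE6D was at 13.4 ± 1.72 and 12.5 ± 1.43 FPKM. Among 3 genes of related prenyl transfer and prenylcysteine breakdown, PCYOX1, the lysosomal prenylcysteine oxidase, rose 1.59-fold to 21.9 ± 3.58 FPKM, against 13.8 ± 2.59 FPKM in controls (SD, n = 3 each; limma adjusted p = 0.0330). PTAR1, an alpha-type subunit that pairs with RABGGTB in geranylgeranyl transferase III, was at 32.8 ± 2.01 FPKM with fluvastatin and 33.5 ± 1.82 FPKM in controls (SD, n = 3 each; limma adjusted p = 0.836).

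Among 9 genes of other lipid modification of proteins, 1 rose, 1 fell and 7 did not pass, with a median of 0.00. ZDHHC9, a palmitoyltransferase of Ras proteins, rose 1.28-fold to 10.8 ± 0.591 FPKM, against 8.46 ± 0.348 FPKM in controls (SD, n = 3 each; limma adjusted p = 0.0344). ABHD17C, of a family that removes palmitate, fell to 11.3 ± 0.518 FPKM, against 17.3 ± 0.995 FPKM in controls (SD, n = 3 each; limma adjusted p = 0.00550), and the N-myristoyltransferase NMT1 was at 108 ± 0.843 and 109 ± 8.45 FPKM in fluvastatin and control libraries. Of the 3 genes of the methyl donor cycle on which ICMT depends, 0 rose, 1 fell and 2 did not pass. MAT2A, which makes S-adenosylmethionine, fell to 143 ± 12.9 FPKM, against 213 ± 22.3 FPKM in controls (SD, n = 3 each; limma adjusted p = 0.0145). AHCY, which clears the used donor, was at 69.3 ± 4.59 and 82.9 ± 1.96 FPKM in fluvastatin and control libraries (SD, n = 3 each; limma adjusted p = 0.0704).

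**Figure D5:**
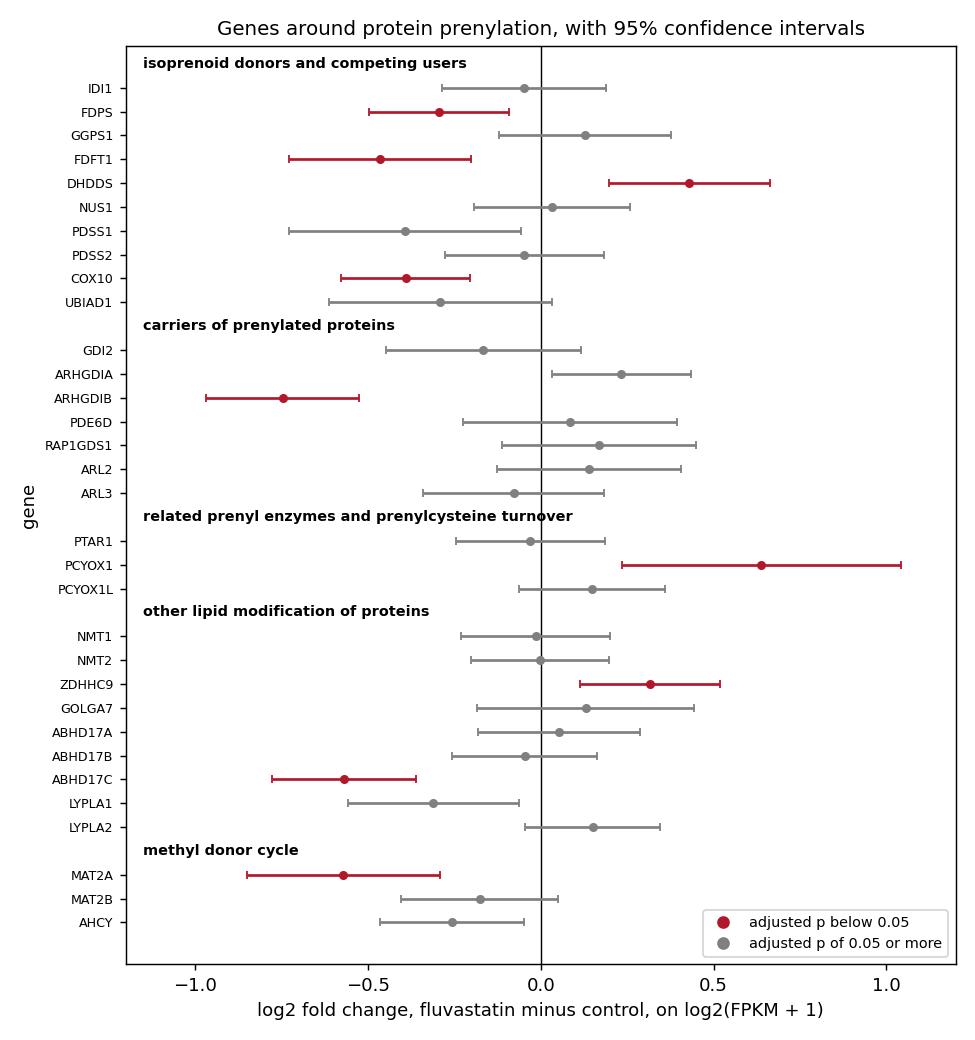
Log2 fold change, fluvastatin minus control on log2(FPKM + 1), with 95% confidence intervals, for the 32 genes of 5 lists around protein prenylation; red marks an adjusted p below 0.05. The 9 red genes point both ways, with PCYOX1 at 0.64 and ARHGDIB at -0.75 the farthest from 0.

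The calls for COX10, ARHGDIB, ABHD17C and MAT2A held when each library was left out in turn, with limma adjusted p up to 0.0488, 0.0155, 0.0271 and 0.0499. COX10 and MAT2A thus held only narrowly. Those for FDPS and ZDHHC9 were lost without any 1 of the 6 libraries, with adjusted p up to 0.135 and 0.114. PCYOX1 missed the threshold without control replicate 1 (0.0781), control replicate 2 (0.0698) or fluvastatin replicate 0 (0.0636), 1 (0.0881) or 2 (0.0646). FDFT1 missed it without control replicate 0 (0.0674), control replicate 1 (0.0678) or fluvastatin replicate 0 (0.0647) or 1 (0.0529), and DHDDS without fluvastatin replicate 0 (0.0648) or 2 (0.0656). FDPS also missed it with TMM scaling (0.0707), ZDHHC9 with quantile normalization (0.0536) and PCYOX1 with no filter on low values (0.0806). With library depth as a covariate none of the 9 passed, with adjusted p between 0.117 and 0.678, in a fit that cannot separate depth from treatment.

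The genes whose pattern over the 6 libraries was most like that of RABGGTA, by Pearson's r of log2(FPKM + 1), were IRGQ (r = 0.997), LINC00623 (r = 0.994) and TMEM198 (r = 0.992). All 3 were wholly higher in fluvastatin libraries, which choosing them by likeness to RABGGTA made nearly certain beforehand. LINC00623 passed the limma test (adjusted p = 0.0168), while IRGQ (0.060) and TMEM198 (0.116) did not. LINC00623 and TMEM198 rested on as few as about 44 and 28 fragments in their thinnest library. IRGQ was at 13.1, 13.8 and 11.4 FPKM in fluvastatin replicates 0, 1 and 2, against 11.04, 9.03 and 8.91 FPKM in control replicates 0, 1 and 2. As many as 589 genes (4.11% of those tested) had r of at least 0.9 to RABGGTA, and all share the same 6 libraries and their depths.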

How the data were processed

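Gene expression was measured by RNA-seq in 6 libraries of A375 cells. STAR, Cufflinks and Cuffdiff are the tools, and hg38 the build, listed in the submitters' processing notes. No unit is named in the header of the deposited table. Its fractional values, with library sums of 686133.2 to 729564.0, were read as FPKM, the unit that the tools named by the authors write. Which versions and gene annotation were used, whether counting was stranded and any rescaling between libraries are not given in the sources used here. GENCODE release 29 held 29542 of the 29790 gene IDs, matched without version numbers.

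A gene was kept if 3 or more libraries reached 1 FPKM. Differences in log2(FPKM + 1) were tested by limma 3.58.1 (R 4.3.3; default eBayes; unblocked), two-sided, with Benjamini-Hochberg adjustment over all 14344 genes. Folds are ratios of mean FPKM, and log2 fold changes understate the change of low genes. Ratios of paired genes were compared with two-sided exact permutation tests in scipy 1.17.1. Relative depth came from the mode of value ratios over genes at 0 in at least 1 library. It and the limma fit were tested on simulated data. No pair of libraries shared more than 2 identical nonzero values, so none was counted as a duplicate. Sequences came from RefSeq on GRCh38.p14.

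Named were all 10 members, up to 4 called genes per list with the smallest adjusted p, and the 3 genes most like each called member. GGPS1, ARHGDIA, PDE6D, PTAR1, NMT1, AHCY, KRT18, SPARC and overlapping genes were named after their values were seen. The members and lists were chosen with earlier results of these data known. Classes of proteins by C-terminal sequence were not analysed here, and 1 gene of the lists is not reported here. Alternatives were another pseudocount, filters, scalings (TMM as an unweighted trimmed mean computed on FPKM, trimming 30% of M and 5% of A, in place of the planned weighted routine), a replicate block, a depth covariate and leaving out each library.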

Additional observations from a re-analysis of the deposited data

How the results depend on the processing

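Of the 151 alternative values for the 10 genes, 129 kept their direction and their side of the threshold. Another 8 lost the RABGGTA call, 14 turned in sign and 0 gained a call. Other filters, limma's trend and robust options and the replicate block could not turn a sign, since they leave the log2 fold change as it was. RABGGTA kept its direction at log2 fold changes of 0.43 with a pseudocount of 0.1 and 0.43 with the depth covariate. With no filter and with the replicate block its value of 0.42 was fixed beforehand. Under each of these settings 0 of the 10 genes passed. Leaving out 1 library each time gave 0.35 to 0.50 for RABGGTA, -0.23 to 0.40 for FNTB, -0.139 to 0.0105 for PGGT1B, -0.10 to 0.0802 for RCE1 and -0.0585 to 0.0359 for ZMPSTE24, with 0 to 1 of the 10 genes past the threshold. RCE1 also turned to 0.0144 with TMM scaling and 0.16 with the depth covariate, ZMPSTE24 to 0.0089 with that scaling, 0.0107 with quantile normalization and 0.10 with the depth covariate, and FNTB to -0.17 when summed with CHURC1-FNTB. Among all genes tested, 3971 passed, against 61 with the depth covariate and 2340 to 3416 with 1 library left out, the fewest without fluvastatin replicate 0 (2340). Each fluvastatin library was deeper than each control by relative depth. The fit with the depth covariate therefore cannot separate depth from treatment, and its lost calls do not show which of them a change follows. The ratio differences that turned were FNTB/FNTA (-0.29 to 0.18), FNTB/PGGT1B (-0.0946 to 0.46) and ZMPSTE24/RCE1 (-0.13 to 0.078) with 1 library left out. The cause of these changes was not tested. Same-numbered libraries of the 2 groups deviated together with r = -0.0015, 0.0845 and 0.0842, against -0.14 to 0.0579 for differently numbered ones. The 2 highest r of all were thus those of same-numbered pairs. The numbers were not taken as a pairing because the labels do not say that equal numbers mark 1 batch. Whether they do was not tested. With the replicate block 3154 genes passed, and adjusted p was 0.0575 for RABGGTA, 0.0929 for FDPS, 0.0614 for FDFT1, 0.0527 for DHDDS and 0.0620 for ZDHHC9. The depth covariate moved 5 further log2 fold changes, PGGT1B to -0.30, RABGGTB to -0.11, CHM to 0.51, ICMT to -0.31 and CHML to -0.0023.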

Other observations

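FNTB was 1 of 11 genes tested (0.0767%) in which the replicate 2 libraries of both groups exceeded all other libraries by at least 1.75-fold, a count made after its values were seen. Of the other 10, 9 were Y RNA copies, processed pseudogenes or a signal recognition particle RNA copy, several of them listed at 0 in some libraries. The remaining gene, RP11-159D12.5, was at 0.669, 0.0890 and 1.87 FPKM in fluvastatin replicates 0, 1 and 2, and at 0, 1.04 and 1.96 FPKM in control replicates 0, 1 and 2. Replicate 2 was the highest library of both groups in 4 of the 10 prenylation genes and in 16.8% of all genes tested.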
